A study of Rattus norvegicus with 29 samples.

Results

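Heterotrimeric G proteins and the enzymes around them carry signals from cell-surface receptors to cyclic AMP, cyclic GMP and calcium. They were examined in RNA of the rat basolateral amygdala as 73 probe sets, each a set of short array probes for 1 transcript, out of 15866 on the array. A probe set was taken where its only annotated symbol named a G protein alpha, beta or gamma subunit, a regulator of G protein signalling (RGS), an adenylyl cyclase or a phosphodiesterase. Rgs5, Rgs9, Adcy5, Pde1b and Pde10a were left out. The 73 probe sets stand for 56 genes. Of these, 51 probe sets for 39 genes were bright enough to be tested.

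In fear conditioning an animal learns that a cue predicts a painful stimulus, and the basolateral amygdala is needed for that learning. Of the 29 arrays, 5 came from rats taken 6 h after conditioning under isoflurane, an inhaled anaesthetic that also impairs memory, and 5 from rats taken 6 h after conditioning. A further 5 followed pain, 1 element of the conditioning procedure, and 5 followed isoflurane without conditioning, both at 6 h, and 9 were baseline controls with no time given. Strain, sex and age are not given in the sources used here. Rat numbers are given for 15 of the 29 arrays, so p-values measure the spread between these samples, which may in part be technical. A labelling kit is named for the isoflurane and baseline arrays only. A kit difference and a group difference therefore cannot be told apart in the comparisons of pain, conditioning or conditioning under isoflurane with baseline, or of conditioning under isoflurane with isoflurane. It would cancel in the interaction defined below for Adcy3 only if it added the same amount in both conditioning groups, which was not tested.

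An activated receptor loads the alpha subunit with GTP and frees it from the beta-gamma pair. Stimulatory alpha subunits switch adenylyl cyclases on and inhibitory ones switch them off, RGS proteins speed up GTP hydrolysis and so end the signal, and phosphodiesterases break down the cyclic nucleotide made. In the amygdala, cyclic AMP and the kinase it activates are known to be needed for long-lasting fear memory.

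A level here is the log2 of the quantile-normalized signal, and a difference of 1 is a doubling. Standard errors (SE) and p-values come from limma fitted on all 9520 probe sets tested, with the Benjamini-Hochberg adjustment over them. Across the arrays the trimmed mean signal was 500.084 to 500.117 and the median signal 210.20 to 291.80 before normalization. The tissue label was borne out in part by Slc17a7 (1368987_at), the vesicular glutamate transporter of cortical-type neurons, whose levels were 10.60 to 12.18. Baseline replicate 3 stood apart, with the highest striatal score and the highest levels of Drd1, Ppp1r1b, Avp and Oxt. Baseline replicate 1 had the highest level of Ttr, a choroid plexus gene, at 13.87 against a median of 7.86 over all arrays.

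No member differed among the 5 groups after adjustment: the limma F test called 0 of 51, and 0 of 9520 over all probe sets (0%). At an unadjusted p under 0.05 there were 3 members, where 700 of all 9520 (7.35%) were so. These were Gnb1 (1367732_at, p 0.0314), Gnai1 (p 0.0353) and Gng5 (1398818_at, p 0.0475), each with an adjusted p of 0.674. None of the 7 comparisons of groups, nor the interaction, called a member. The families were 13 alpha, 8 beta and 7 gamma probe sets with 11, 7 and 5 tested, 17 RGS with 13 tested, 7 adenylyl cyclase with 3 tested and 21 phosphodiesterase with 12 tested. Among them, 2 genes match by their letters alone: Pde4dip encodes myomegalin, which anchors phosphodiesterase 4D, and Pde6d a prenyl-binding chaperone. Over the 9 baseline arrays the tested members had a median SD of 0.237, against 0.219 for all probe sets tested.

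The 22 probe sets that fell below the signal filter cover Gnaq, the main alpha subunit for phospholipase C, Gnb3, Gng8 and Gng11, the cyclases Adcy4, Adcy8 and Adcy10, and Rgs1, Rgs18 and Rgs22. They also cover Pde1c with both its probe sets, Pde3a, Pde4a, Pde5a, Pde6h, Pde7b and Pde8a, and 1 further probe set each of Gnas, Rgs3, Adcy6 and Pde4d. Their mean levels ran up to 7.23, just under the filter at 7.26, and Pde7b lay at the floor of 16 signal units on all 29 arrays. No difference was tested for them.

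**Figure D1:**
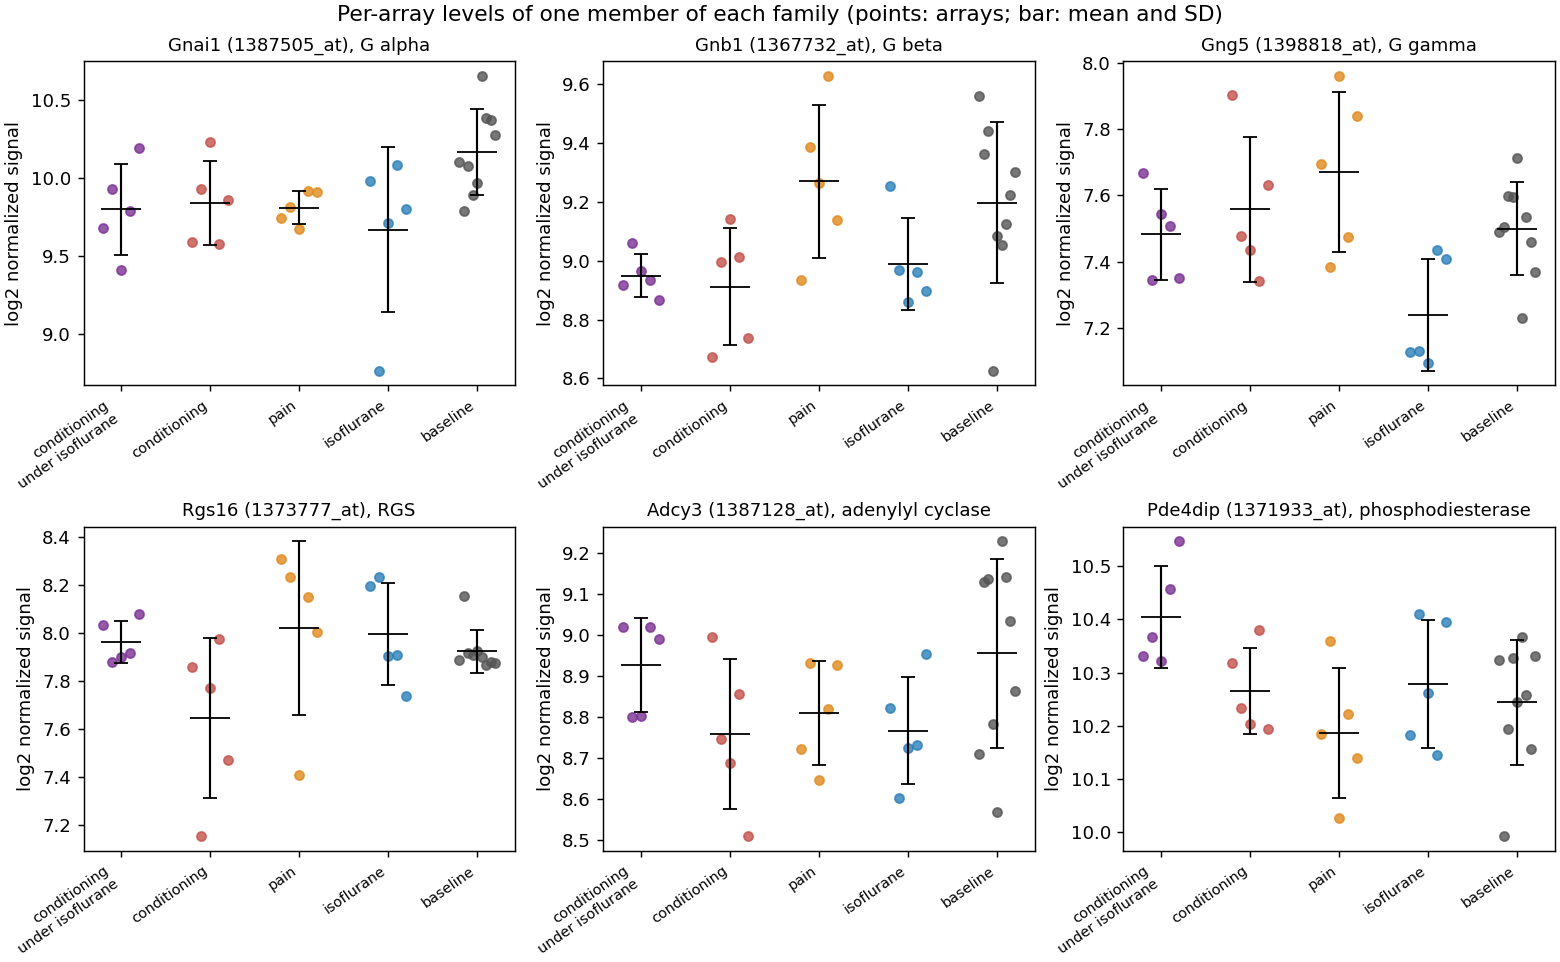
Log2 normalized signal (vertical axis) by group (horizontal axis) for the member of each family with the lowest F test p, 1 point per array, with the mean and SD. Groups run from conditioning under isoflurane to baseline, and every treated group overlaps baseline in each panel.

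Among the alpha subunits, Gnai1 stood lower than baseline on average in all 4 treated groups. Gnai1 encodes an inhibitory alpha subunit that lowers adenylyl cyclase activity. Its levels (1387505_at) were 9.68, 9.93, 9.41, 9.79 and 10.19 after conditioning under isoflurane and 9.59, 9.93, 10.23, 9.58 and 9.86 after conditioning. After pain they were 9.74, 9.81, 9.67, 9.92 and 9.91, after isoflurane 9.98, 8.77, 9.71, 10.09 and 9.80, and at baseline 9.79 to 10.65 with a median of 10.11. Every treated group overlapped the baseline range, while 4 baseline arrays, replicates 6 to 9 at 10.27 to 10.65, lay above every treated array. The log2 difference from baseline was -0.37 (SE 0.16, p 0.0315, adjusted p 0.732) after conditioning under isoflurane and -0.33 (p 0.0527) after conditioning. It was -0.36 (p 0.0368, adjusted p 0.524) after pain and -0.50 (p 0.00482, adjusted p 0.922) after isoflurane. These 4 comparisons share their baseline arrays, so they are not 4 separate observations. Without isoflurane replicate 2, the array at 8.77, the isoflurane difference was -0.27. Against baseline replicates 1 to 5 alone it was -0.30, and against replicates 6 to 9 alone it was -0.75 (adjusted p 0.0723). In the same order the pain difference was -0.16 and -0.61, and that of conditioning under isoflurane was -0.17 and -0.62. With baseline replicates 1 to 5 alone the limma F statistic of Gnai1 was 0.71 (adjusted p 0.903).

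Gnas encodes the stimulatory alpha subunit, and 2 of its probe sets were tested. At 1387906_a_at the levels were 10.91, 11.12, 11.60, 10.94 and 10.98 after pain, and 10.27 to 11.21 at baseline with a median of 10.94. The pain arrays overlapped the upper baseline arrays, and 3 baseline arrays stood apart at 10.27, 10.31 and 10.41. The difference was 0.33 (SE 0.16, p 0.0475, adjusted p 0.551), and 0.20 without pain replicate 3. Against baseline replicates 1 to 5 alone it was 0.09, and against replicates 6 to 9 alone 0.63 (adjusted p 0.0508). At the brighter 1369897_s_at pain minus baseline was 0.05 (SE 0.06, 95% interval -0.08 to 0.17).

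Gna12, a further alpha subunit, had levels at 1371798_at of 10.80, 11.11, 10.59, 10.82 and 11.12 after conditioning and 10.55, 10.61, 10.80, 10.78 and 10.43 after pain. The higher conditioning arrays were replicates 2 and 5, and the groups overlapped. Conditioning minus pain was 0.25 (SE 0.11, p 0.0248, adjusted p 0.521). Those 2 arrays also had the highest oligodendrocyte marker scores of their group, 0.32 and 0.47. With that score, defined below, as a covariate the difference was 0.13, and conditioning minus baseline was 0.01, against 0.18 without it. The second Gna12 probe set, 1369278_at, gave 0.19 (SE 0.24). It was among the members that varied most at baseline (SD 0.46).

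The 7 beta-subunit probe sets stand for 4 genes, so they are not 7 separate observations. All 7 had lower means after conditioning under isoflurane than at baseline (median difference -0.07), and 6 of 7 after conditioning (median -0.16). In each of these 1 of 7 had an unadjusted p under 0.05. After pain 5 of 7 were lower (median -0.03) and after isoflurane 5 of 7 (median -0.11), against the same baseline arrays. In the same order of comparisons 51.1%, 49.9%, 49.2% and 51% of all probe sets were higher. The beta subunit forms, with gamma, a pair that itself gates potassium and calcium channels. Gnb1 has 3 tested probe sets, and they differ in how steady they are. At 1367732_at the levels were 8.92, 9.06, 8.97, 8.93 and 8.87 after conditioning under isoflurane and 8.67, 9.00, 9.14, 9.01 and 8.74 after conditioning. They were 8.94, 9.39, 9.26, 9.63 and 9.14 after pain, 9.25, 8.97, 8.86, 8.96 and 8.90 after isoflurane, and 8.63 to 9.56 at baseline with a median of 9.22. All arrays of both conditioning groups lay below the baseline median, as did all isoflurane arrays but replicate 1. Both conditioning groups overlapped the lower baseline arrays. Conditioning under isoflurane minus baseline was -0.25 (SE 0.12, p 0.0487, adjusted p 0.764) and conditioning minus baseline was -0.29 (p 0.0246, adjusted p 0.45). Isoflurane minus baseline was -0.21 (SE 0.12, p 0.093, adjusted p 0.962), and conditioning under isoflurane minus isoflurane was -0.04 (SE 0.14, p 0.78). Conditioning minus pain was -0.36 (SE 0.14, p 0.0137, adjusted p 0.521), the lowest p of any member in that comparison.

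The other Gnb1 probe sets did not show this size. At 1375705_at conditioning minus baseline was -0.08 (SE 0.09, 95% interval -0.27 to 0.10). At 1367731_at it was 0.76 (SE 0.59), on a probe set whose 9 baseline levels spread from 7.69 to 11.52 (SD 1.30), the largest spread of all 51 members. Its conditioning levels of 11.81, 9.10, 8.55, 10.36 and 9.65 and pain levels of 8.72, 8.63, 7.60, 9.38 and 8.50 differed by 1.33 (SE 0.67, p 0.0563, adjusted p 0.552), and by 0.85 without conditioning replicate 1. Replicate 1 gave the highest conditioning level and replicate 3 the lowest pain level.

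Of the 5 gamma-subunit probe sets, 3 had higher and 2 lower means after isoflurane than at baseline (median difference 0.05), and the 2 lower ones belong to Gng5 and Gng7. Gng5 is widely expressed. At 1398818_at it had levels of 7.13, 7.13, 7.09, 7.44 and 7.41 after isoflurane, and 7.23 to 7.71 at baseline with a median of 7.50. Of the isoflurane arrays 3 lay below every baseline array. The difference was -0.26 (SE 0.12, p 0.0374, adjusted p 0.922). Its other probe set, 1387342_at, gave 0.14 (SE 0.18) in the same comparison. After conditioning that probe set had levels of 10.95, 11.47, 10.80, 11.34 and 11.25, against 10.40 to 11.30 at baseline with a median of 10.93. The difference was 0.35 (SE 0.18, p 0.0641, adjusted p 0.516). It was 0.18 against baseline replicates 1 to 5 alone and 0.56 against replicates 6 to 9 alone.

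Gng7, a gamma subunit known for its part in dopamine receptor signalling in the striatum, had levels of 8.88, 9.12, 9.22, 8.89 and 9.24 after isoflurane, and 9.18 to 9.89 at baseline with a median of 9.35. Only the upper 2 isoflurane arrays reached the baseline range. The difference was -0.35 (SE 0.14, p 0.0216, adjusted p 0.922). After conditioning under isoflurane Gng7 had levels of 8.94, 9.27, 9.37, 9.10 and 9.00, and its difference from baseline was -0.29 (p 0.057). Gng3, a neuronal gamma subunit, had the steadiest baseline of all 51 members (SD 0.07). Its levels were 11.91, 11.80, 11.82, 12.02 and 12.04 after conditioning under isoflurane and 11.65, 11.38, 11.91, 11.93 and 11.71 after conditioning. Both groups overlapped, and the difference was 0.20 (SE 0.09, p 0.038, adjusted p 0.999), and 0.12 without conditioning replicate 2. Gng10 differed by 0.20 (SE 0.12, p 0.0919, adjusted p 0.8) between conditioning under isoflurane and baseline.

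In the RGS family 9 of 13 probe sets had lower means after conditioning than at baseline, with a median difference of -0.18. These 13 stand for 10 genes, and 49.9% of all probe sets were higher in that comparison. Rgs2, which acts on the phospholipase C-coupled alpha subunit and is induced by neuronal activity, gave the most negative difference at 1368144_at. Its levels were 7.91, 7.45, 9.04, 9.35 and 8.29 after conditioning, and 8.27 to 9.29 at baseline with a median of 8.91. Conditioning replicates 1 and 2 lay below every baseline array and replicate 4 above them all. The difference was -0.47 (SE 0.21, p 0.0355, adjusted p 0.473), -0.23 without conditioning replicate 2 and -0.71 without conditioning replicate 4. Against baseline replicates 1 to 5 alone the difference was -0.70, and against replicates 6 to 9 alone -0.18. At 1387074_at, where conditioning levels were 9.76, 9.58, 10.16, 10.16 and 9.99 and baseline levels 9.64 to 10.47, it was -0.18 (SE 0.11, p 0.117). The same 2 conditioning arrays were lowest at both probe sets. The interaction of isoflurane and conditioning was 0.69 (SE 0.32, p 0.0404, adjusted p 0.959) at 1368144_at, and 0.45 without conditioning replicate 2. With baseline replicates 1 to 5 alone it was 0.93, and with replicates 6 to 9 alone 0.40. At 1387074_at the interaction was 0.04 (SE 0.17).

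Rgs16, an RGS protein for inhibitory and phospholipase C-coupled alpha subunits, had levels of 8.03, 7.88, 7.90, 7.92 and 8.08 after conditioning under isoflurane and 7.86, 7.15, 7.77, 7.97 and 7.47 after conditioning. They were 8.31, 8.23, 7.41, 8.15 and 8.00 after pain, and 7.87 to 8.15 at baseline with a median of 7.90. The lowest conditioning arrays were replicates 2 and 5, and the groups overlapped. Conditioning minus pain was -0.38 (SE 0.15, p 0.0179, adjusted p 0.521), conditioning minus baseline -0.28 (p 0.0434, adjusted p 0.488) and conditioning under isoflurane minus conditioning 0.32 (p 0.0429, adjusted p 0.999). Without conditioning replicate 2 the difference from baseline was -0.16, and that between the conditioning groups 0.19.

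Rgs4, a neuronal RGS protein for the same alpha subunits, followed a similar order. At 1368505_at the levels were 11.15, 11.01, 11.15, 11.49 and 11.12 after conditioning under isoflurane, 11.05, 10.16, 11.14, 11.09 and 10.82 after conditioning and 11.25, 11.07, 11.06, 11.26 and 11.38 after pain. Conditioning replicate 2 was again the lowest array. Conditioning minus pain was -0.35 (SE 0.16, p 0.035, adjusted p 0.532), and conditioning under isoflurane minus conditioning was 0.33 (SE 0.16, p 0.0449, adjusted p 0.999). Without conditioning replicate 2 they were -0.18 and 0.16. At the second probe set, 1368506_at, these were -0.37 (SE 0.26) and 0.32 (SE 0.26), the same direction with wider error. Conditioning replicate 2 also had the lowest striatal score of its group, -0.39, and an oligodendrocyte score of 0.32.

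Of the cyclases only Adcy2, Adcy3 and the Adcy6 probe set 1367644_at were tested. Adcy3, the cyclase of olfactory neurons and of neuronal cilia, had levels of 9.02, 8.80, 8.80, 9.02 and 8.99 after conditioning under isoflurane and 8.82, 8.60, 8.72, 8.73 and 8.95 after isoflurane. They were 8.99, 8.75, 8.69, 8.85 and 8.51 after conditioning, and 8.57 to 9.23 at baseline with a median of 9.03. The 2 groups with isoflurane overlapped, as did conditioning and baseline. The interaction subtracts conditioning minus baseline from conditioning under isoflurane minus isoflurane. For Adcy3 it was 0.36 (SE 0.16, p 0.0298, adjusted p 0.959). Adcy2, a cyclase stimulated by beta-gamma pairs, averaged 10.57 (SD 0.12, n = 5) after conditioning under isoflurane and 10.37 (SD 0.19, n = 5) after isoflurane. The difference was 0.20 (limma SE 0.11, p 0.0699, adjusted p 0.998), the lowest p of any member in that comparison, and 0.12 without isoflurane replicate 3.

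The phosphodiesterases showed small and mixed differences. Pde9a, which is specific for cyclic GMP, was the only member whose groups did not overlap in any of the 7 comparisons. In the comparison concerned, conditioning under isoflurane minus conditioning, 67 of 9520 probe sets (0.704%) did not overlap. In the others 0 of 51 members were so, where the share of all probe sets was 0.221% for conditioning under isoflurane, 0.116% each for conditioning and pain and 0.137% for isoflurane against baseline. It was 1.13% for conditioning minus pain and 0.924% for conditioning under isoflurane minus isoflurane. Its levels were 9.16, 9.17, 9.05, 9.16 and 9.25 after conditioning under isoflurane and 8.88, 9.02, 8.86, 9.02 and 8.69 after conditioning. Every array of the first group was above every array of the second. The difference was 0.27 (SE 0.13, p 0.0465, adjusted p 0.999), and conditioning under isoflurane minus baseline was 0.12 (SE 0.11).

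Pde3b, the phosphodiesterase through which insulin lowers cyclic AMP, had levels of 7.24, 7.12, 7.44, 7.50 and 7.28 after conditioning under isoflurane and 7.62, 7.55, 6.93, 8.00 and 7.84 after isoflurane. They were 7.75, 7.74, 7.52, 7.51 and 7.28 after conditioning, and 6.84 to 7.65 at baseline with a median of 7.30. Isoflurane and conditioning each had means above baseline and their combination did not, which gives an interaction of -0.51 (SE 0.22, p 0.0268, adjusted p 0.959). Pde6g, the inhibitory subunit of the rod photoreceptor enzyme, gave -0.54 (SE 0.29, p 0.074) on a probe set with a wide baseline (SD 0.46).

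Pde4dip (1371933_at) had levels of 10.33, 10.37, 10.32, 10.46 and 10.55 after conditioning under isoflurane, and 9.99 to 10.37 at baseline with a median of 10.26. The groups overlapped at their edges and the difference was 0.16 (SE 0.07, p 0.0313, adjusted p 0.73). At its second probe set, 1387373_at, the difference was -0.20 (SE 0.15, 95% interval -0.50 to 0.10). Pde6d had 1 of the 3 steadiest baselines (SD 0.07).

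**Figure D2:**
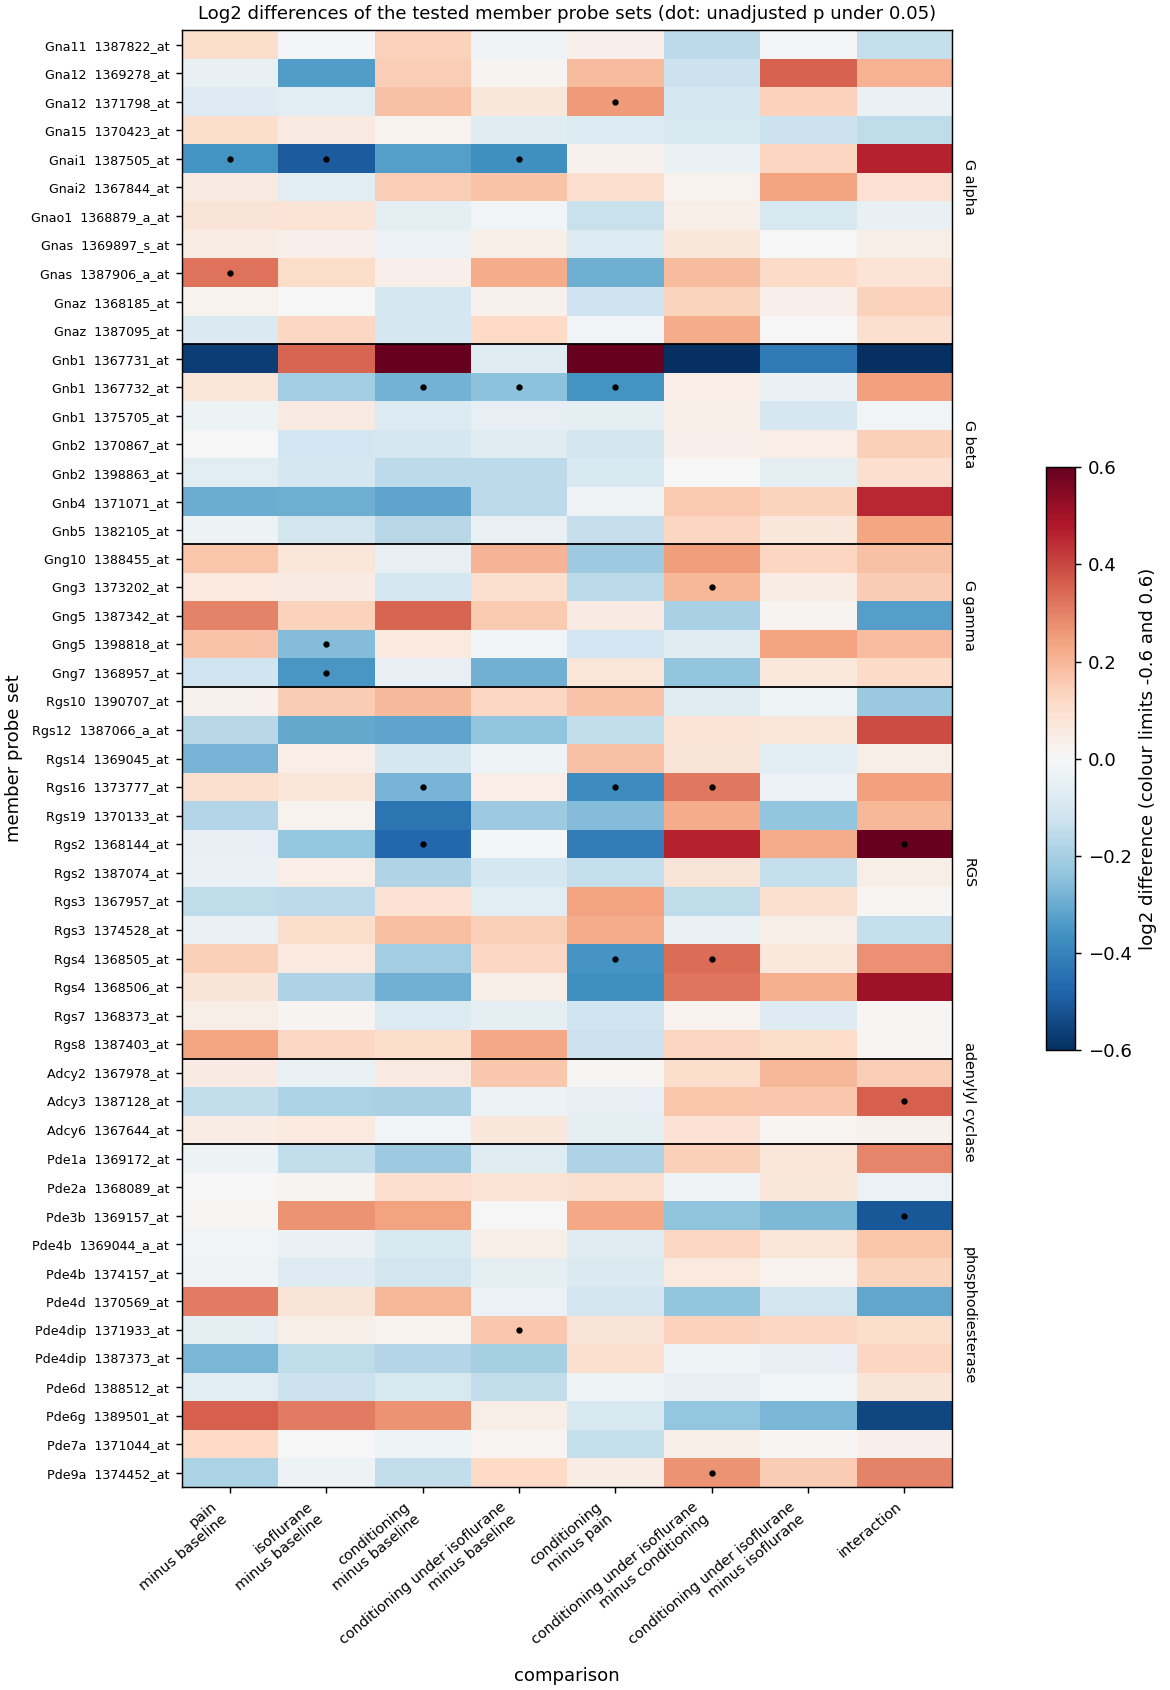
Log2 difference (colour, limited at -0.6 and 0.6) of each of the 51 tested member probe sets (rows, by family) in the 7 comparisons and the interaction (columns), with a dot for an unadjusted p under 0.05. Dots are few, and the most in a row is 3, for Gnai1, Gnb1 (1367732_at) and Rgs16.

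Set side by side, the comparisons gave few members at an unadjusted p under 0.05, and the share of all 9520 probe sets at that p is given with each count. In conditioning under isoflurane minus baseline there were 3 of 51 (6.5% of all), with Pde4dip higher (3.25%) and Gnai1 and Gnb1 lower (3.26%). In conditioning minus baseline there were 3 (10.1%), with 0 higher (5.12%), and Gnb1, Rgs2 and Rgs16 lower (5.03%). In pain minus baseline there were 2 (8.96%), with Gnas higher (4.33%) and Gnai1 lower (4.63%).

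Isoflurane minus baseline gave 3 members (5.38%), with 0 higher (2.64%), and Gnai1, Gng5 and Gng7 lower (2.74%). Conditioning minus pain gave 4 (9.04%), with Gna12 higher (4.74%) and Gnb1, Rgs4 and Rgs16 lower (4.31%). Conditioning under isoflurane minus conditioning gave 4 (3.69%), with Gng3, Pde9a, Rgs4 and Rgs16 higher (1.79%) and 0 lower (1.9%). Conditioning under isoflurane minus isoflurane gave 0 (4%), higher (1.88%) or lower (2.12%). In the interaction there were 3 (4.79%), with Adcy3 and Rgs2 higher (2.38%) and Pde3b lower (2.41%). After adjustment limma called 1 of all 9520 probe sets in isoflurane minus baseline (0.0105%), which is no member, and 0 (0%) in each other comparison. Differences of members from baseline had a median SE of 0.13, and those of 2 groups of 5 arrays had 0.15.

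After conditioning the members as a family lay slightly lower. The median difference from baseline was -0.08 with 32 of 51 lower, beside -0.0005 over all probe sets, of which 49.9% were higher. It was -0.05 without baseline replicate 3, and -0.02 against baseline replicates 6 to 9 alone. Against pain the median was -0.08 with 33 of 51 lower, beside 0.0009, with 50.3% of all probe sets higher. Conditioning under isoflurane minus conditioning had a median of 0.04 with 32 of 51 higher, beside 0.006, with 51.8% of all probe sets higher. In the interaction 38 of 51 were higher with a median of 0.10, beside 0.003, with 50.8% of all probe sets higher. The conditioning arrays enter each of these, so the 4 values are not separate.

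The comparisons of pain, isoflurane and conditioning under isoflurane with baseline were centred near 0. In pain minus baseline 26 of 51 members were higher (49.2% of all probe sets), with a median of 0.003 beside -0.003. In isoflurane minus baseline 26 were higher (51%), with a median of 0.004 beside 0.003. Conditioning under isoflurane had 24 higher against baseline (51.1%), with a median of -0.009 beside 0.004. Against isoflurane it had 32 higher (50.7%), with a median of 0.04 beside 0.002. That count and median equal those of conditioning under isoflurane minus conditioning, though the conditioning arrays do not enter here.

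Some lists of markers of other cell types and of neighbouring tissue leaned to 1 side in the comparisons that use the conditioning arrays. Other lists did not. Some lists also leaned where the members' median was near 0. In pain minus baseline 12 of 15 striatal probe sets were lower (median -0.13) and 17 of 21 astrocyte ones higher (median 0.14). Of the microglial ones 10 of 12 were higher there (median 0.04). In isoflurane minus baseline 11 of 15 striatal probe sets were lower (median -0.18). After conditioning under isoflurane 17 of 21 astrocyte ones were above baseline (median 0.09). In conditioning minus baseline 14 of the 15 striatal probe sets were lower (median -0.24), and all 16 oligodendrocyte and myelin probe sets were higher (median 0.30), 0 of them past the adjusted threshold in limma and 4 and 8 at an unadjusted p under 0.05. Of the astrocyte probe sets 20 of 21 were higher (median 0.16, 7 at an unadjusted p under 0.05), and of the microglial ones 10 of 12 (median 0.17, 0 at that p), again with 0 past the adjusted threshold. The vascular and meningeal list had 4 of 8 higher in conditioning minus baseline, and so had the excitatory projection neuron list. Of the GABAergic interneuron probe sets 7 of 11 were lower (median -0.22, 0 at an unadjusted p under 0.05). Of the hypothalamic and thalamic ones 3 of 5 were lower (median -0.09). In the interaction 14 of 15 striatal probe sets were higher (median 0.37) and 15 of 16 oligodendrocyte probe sets lower (median -0.31). The summed signal of the 22 striatal probe sets on the array was 7592 to 15449 after conditioning and 7430 to 21975 at baseline. With the striatal score as a covariate the members' median was 0.007 in conditioning minus baseline and 0.04 in the interaction, and with the oligodendrocyte score it was -0.02 and 0.10. In conditioning minus pain it was -0.06 with the striatal and -0.05 with the oligodendrocyte score. In conditioning under isoflurane minus conditioning it was 0.002 with the striatal and 0.04 with the oligodendrocyte score. In bulk tissue a smaller number of cells of a type and less RNA per cell cannot be told apart.

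**Figure D3:**
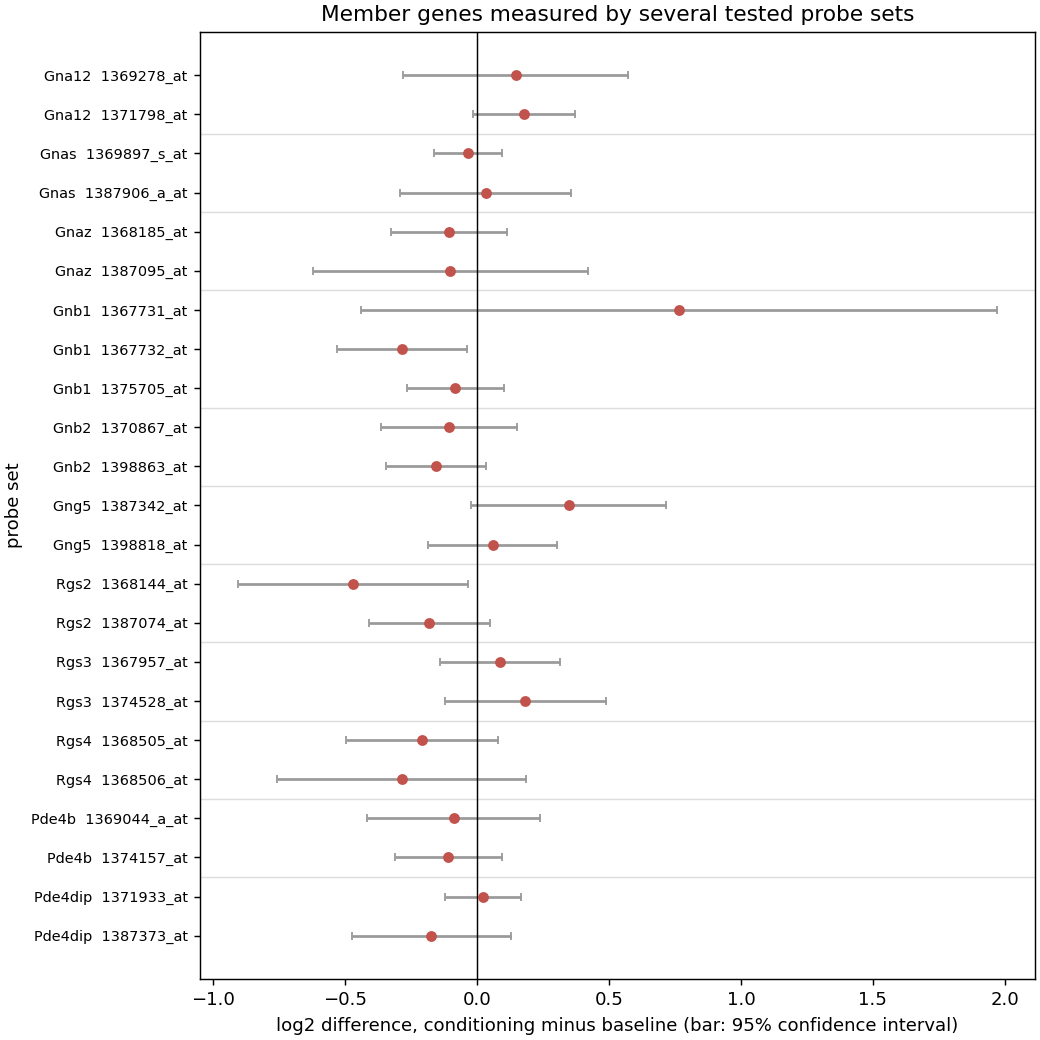
Log2 difference of conditioning minus baseline (horizontal axis) with its 95% confidence interval for each tested probe set of the 11 member genes that have more than 1. Probe sets of the same gene lie side by side, and Gnb1, Gnas and Pde4dip have probe sets on both sides of 0.

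Where a gene was measured more than once, its probe sets mostly had the same sign, except in isoflurane minus baseline. Of the 11 such genes, 3 had probe sets on both sides of 0 in conditioning minus baseline, 4 in conditioning under isoflurane minus baseline, 3 in pain minus baseline and 7 in isoflurane minus baseline. The count was 2 in conditioning minus pain and 3 in conditioning under isoflurane minus conditioning. It was 4 in conditioning under isoflurane minus isoflurane and 4 in the interaction. Both probe sets of Rgs2 and both of Rgs4 were below 0 in conditioning minus baseline. The 28 other genes rest on 1 tested probe set each.

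Variation between arrays, rather than between groups, was where members passed the threshold. The striatal score is the mean deviation of 15 probe sets of striatal genes from their means, and was fitted beside the 5 group means. Rgs9, Adcy5 and Pde10a, which belong to the same families, are among its genes, and none of the 51 members is. The score averaged 0.08 after conditioning under isoflurane, -0.16 after conditioning, -0.04 after pain, -0.09 after isoflurane and 0.11 at baseline, where replicate 3 had 0.92. Rgs2 (1387074_at) rose by 0.53 per unit of the score (SE 0.12, limma adjusted p 0.0285) and Pde4b (1374157_at) by 0.47 (SE 0.10, adjusted p 0.0284), 2 members of the 48 probe sets called (0.504%). The Rgs2 call was lost with the deposited scaling (adjusted p 0.0692) and with arrays centred on their medians (0.0739). Pde4b, a phosphodiesterase for cyclic AMP, reached 10.06 on baseline replicate 3, against 9.34 to 9.95 on the other baseline arrays.

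The second Pde4b probe set, 1369044_a_at, had a slope of 0.69 (SE 0.18, adjusted p 0.0677), and the second of Rgs2, 1368144_at, 0.74 (SE 0.26, adjusted p 0.229). Rgs8, known from the striatum and Purkinje cells, had 0.55 (SE 0.16, adjusted p 0.114) and Rgs4 (1368506_at) 0.88 (SE 0.27, adjusted p 0.161). These 4 ran the same way and did not pass. Rgs10, an RGS protein of microglia, had the most negative slope against its error (-0.30, SE 0.14, adjusted p 0.423), and Pde2a, which cyclic GMP stimulates, had -0.20 (SE 0.12). At an unadjusted p under 0.05 there were 11 of 51 members, 10 with positive and 1 with a negative slope, where 11.1% of all probe sets were so, 6.14% positive and 4.91% negative. Of the members 31 had slopes above 0, and 50.9% of all probe sets. Without baseline replicate 3 the adjusted p of Rgs2 was 0.108 and that of Pde4b 0.166, with slopes of 0.59 and 0.47. Both calls were also lost without baseline replicate 4 (adjusted p 0.0645 and 0.0736). That of Rgs2 was lost without conditioning replicate 2 or 4 or baseline replicate 2 or 9 (adjusted p up to 0.0734), and that of Pde4b without pain replicate 2 or baseline replicate 7 (up to 0.0641).

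**Figure D4:**
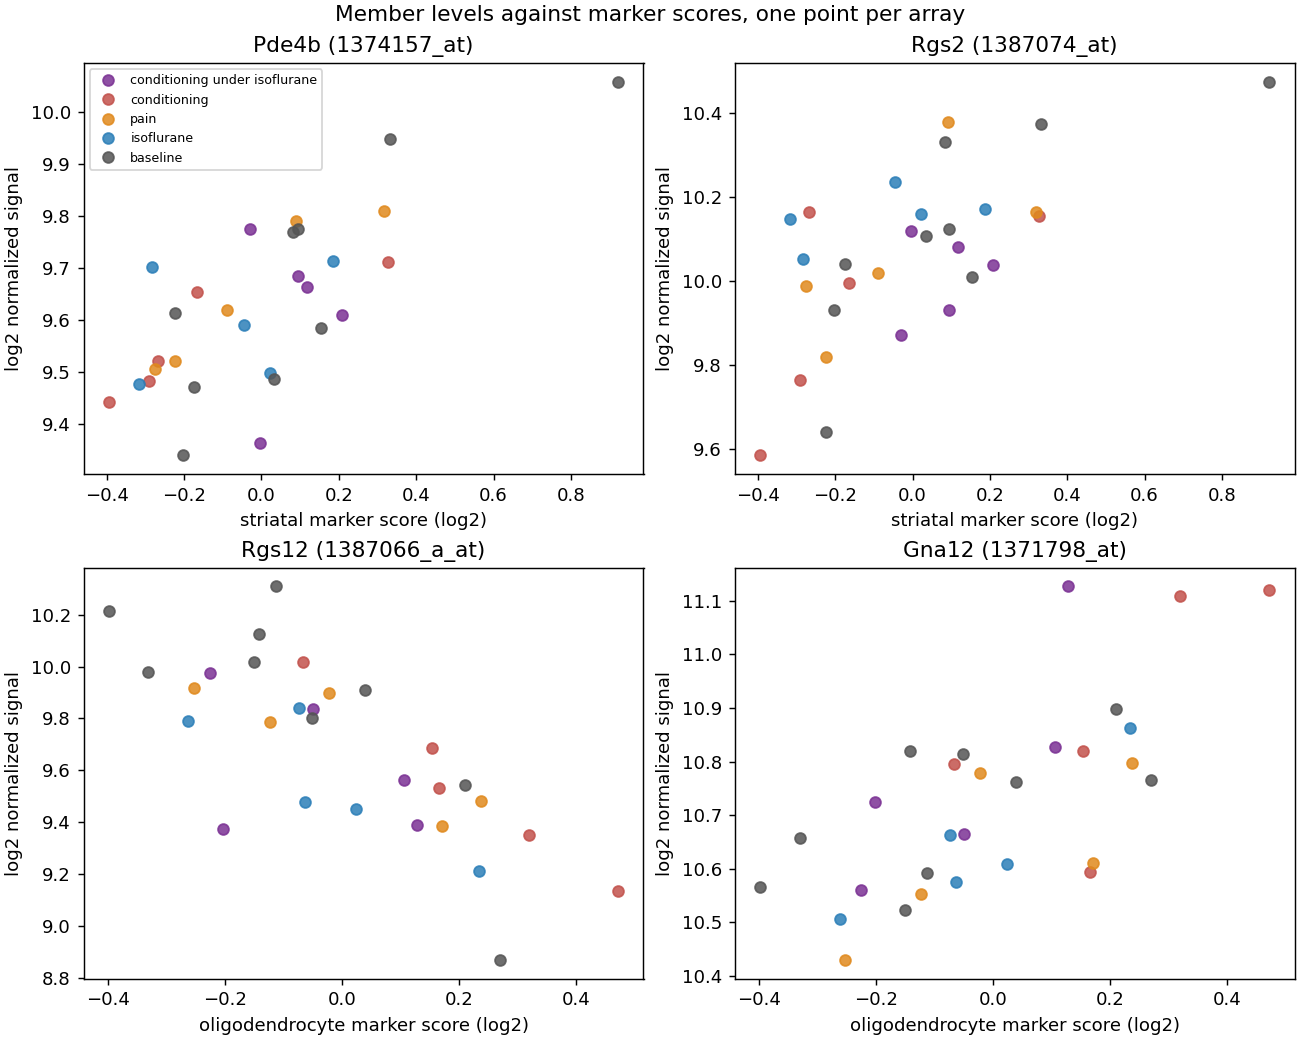
Log2 normalized signal (vertical axes) of the 4 probe sets whose slope passed the threshold, against the striatal or the oligodendrocyte marker score (horizontal axes, log2), 1 point per array, coloured by group. Baseline replicate 3 lies alone at a striatal score of 0.92, and Rgs12 falls along the oligodendrocyte score over arrays of all groups.

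With the oligodendrocyte score, the mean deviation of 16 myelin-cell probe sets, Rgs12 had the lowest p of any member. The score averaged -0.05 after conditioning under isoflurane, 0.21 after conditioning, 0.002 after pain, -0.03 after isoflurane and -0.07 at baseline. Rgs12, a large RGS protein that also binds inhibitory alpha subunits through a GoLoco motif, fell by 1.34 per unit of the score (SE 0.21, limma adjusted p 0.00077). Gna12 (1371798_at) rose by 0.60 (SE 0.14, adjusted p 0.0363). They were 2 members of the 52 probe sets called (0.546%). With arrays centred on their medians both calls were lost (adjusted p 0.296 for Rgs12 and 0.3 for Gna12). That of Gna12 was also lost with the deposited scaling (0.0765) and with no filter (0.0503).

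Rgs12 levels were 9.56, 9.38, 9.39, 9.84 and 9.98 after conditioning under isoflurane, 10.02, 9.35, 9.53, 9.69 and 9.14 after conditioning and 9.79, 9.39, 9.48, 9.90 and 9.92 after pain. They were 9.45, 9.79, 9.48, 9.21 and 9.84 after isoflurane and 8.87 to 10.31 at baseline with a median of 9.98. The lowest array of all was baseline replicate 2, at 8.87, whose score of 0.27 was the highest of the baseline group. In the conditioning group the lowest level was on replicate 5, which had the highest score of any array, 0.47.

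Rgs14, which shares the GoLoco motif, had a slope of -0.87 (SE 0.25, adjusted p 0.1), Rgs7 -0.33 (SE 0.12, adjusted p 0.21) and Pde2a -0.42 (SE 0.16, adjusted p 0.229). On the positive side were Gna12 (1369278_at) at 0.66 (SE 0.37), Gng5 (1387342_at) at 0.54 (SE 0.32) and Pde4b (1374157_at) at 0.36 (SE 0.17), none of which passed. At an unadjusted p under 0.05 there were 9 of 51 members, 7 with negative and 2 with positive slopes, where 12.7% of all probe sets were so, 6.64% negative and 6.04% positive. Of the members 20 had slopes above 0, and 48.6% of all probe sets. The Gna12 call was lost on leaving out any of 12 arrays, with adjusted p up to 0.0974. These were conditioning under isoflurane replicates 1, 3 and 5, conditioning replicates 1, 2 and 5, pain replicates 3 and 5, isoflurane replicates 2 and 4, and baseline replicates 5 and 6.

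Promoters are shown for the members whose slopes passed and for the single member window with a full cyclic AMP response element, the site bound by CREB. A window runs from 250 bases before to 50 after a RefSeq transcript start in the rat build GRCr8, and 42 of the 56 genes matched, with 54 windows. Capitals mark TGACG, the shorter core of the element, on either strand, or the full TGACGTCA, which counts as a match of both. The windows are chr13:58352617-58352916 (- strand) for Rgs2, chr5:122028706-122029005 and chr5:122222323-122222622 (both + strand) for Pde4b, chr14:80034810-80035109 (- strand) for Rgs12, chr12:18919379-18919678 (+ strand) for Gna12 and chr19:11198388-11198687 (- strand) for Gnao1.
Rgs2: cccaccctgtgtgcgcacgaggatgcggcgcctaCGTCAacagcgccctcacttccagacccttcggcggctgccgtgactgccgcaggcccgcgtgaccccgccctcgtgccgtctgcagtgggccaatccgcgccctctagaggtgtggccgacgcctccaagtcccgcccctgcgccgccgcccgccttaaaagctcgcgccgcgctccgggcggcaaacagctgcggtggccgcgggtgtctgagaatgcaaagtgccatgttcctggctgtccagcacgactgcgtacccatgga
Pde4b window 1: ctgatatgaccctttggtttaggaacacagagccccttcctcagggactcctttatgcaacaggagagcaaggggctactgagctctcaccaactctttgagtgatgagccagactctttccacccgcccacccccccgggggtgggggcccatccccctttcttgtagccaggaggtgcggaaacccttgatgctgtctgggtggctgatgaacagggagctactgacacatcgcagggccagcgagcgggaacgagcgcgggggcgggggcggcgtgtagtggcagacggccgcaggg
Pde4b window 2: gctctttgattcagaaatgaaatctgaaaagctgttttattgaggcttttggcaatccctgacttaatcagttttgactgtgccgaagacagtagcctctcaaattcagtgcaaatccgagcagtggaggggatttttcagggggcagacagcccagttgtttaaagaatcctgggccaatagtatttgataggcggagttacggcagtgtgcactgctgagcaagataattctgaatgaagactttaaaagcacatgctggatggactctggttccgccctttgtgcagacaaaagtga
Rgs12: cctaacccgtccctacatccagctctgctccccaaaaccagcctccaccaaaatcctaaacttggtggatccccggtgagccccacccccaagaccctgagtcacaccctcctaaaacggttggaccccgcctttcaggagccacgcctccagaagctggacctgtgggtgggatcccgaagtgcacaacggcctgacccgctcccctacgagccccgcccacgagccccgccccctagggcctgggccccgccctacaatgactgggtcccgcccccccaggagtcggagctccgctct
Gna12: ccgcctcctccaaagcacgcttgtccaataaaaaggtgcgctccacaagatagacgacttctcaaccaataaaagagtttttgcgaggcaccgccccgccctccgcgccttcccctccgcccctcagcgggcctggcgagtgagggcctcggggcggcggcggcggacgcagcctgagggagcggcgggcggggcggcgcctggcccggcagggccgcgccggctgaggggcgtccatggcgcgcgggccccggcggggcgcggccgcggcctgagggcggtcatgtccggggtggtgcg
Gnao1: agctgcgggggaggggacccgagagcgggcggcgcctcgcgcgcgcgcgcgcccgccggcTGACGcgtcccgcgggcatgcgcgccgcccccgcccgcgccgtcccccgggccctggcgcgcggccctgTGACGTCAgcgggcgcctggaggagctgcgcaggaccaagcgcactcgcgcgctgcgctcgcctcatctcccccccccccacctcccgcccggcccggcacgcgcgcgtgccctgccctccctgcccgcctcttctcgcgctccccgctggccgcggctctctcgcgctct

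The Rgs2 window holds the shorter core 216 bases before the start, and the Pde4b, Rgs12 and Gna12 windows hold neither. TGACGTCA on both strands occurred in 1 of 54 member windows (1.85%) and in 612 of all 33469 windows (1.83%). TGACG occurred in 15 of 54 (27.8%, exact 95% interval 16.5 to 41.6) and in 7097 of 33469 (21.2%). Gnao1, the alpha subunit abundant in brain, was tested at 1 probe set and passed in no comparison. Promoters of Adcy3, Adcy6, Adcy8, Gnai2, Gnaz, Gnb3, Gng8, Pde3b, Pde6d, Pde6g, Pde7a, Pde7b, Pde9a and Rgs22 were not matched.

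Further along the pathway, 57 probe sets of receptor kinases, G protein modulators, protein kinase A subunits, anchoring proteins, phospholipases and cyclic nucleotide targets were tested, and 0 passed in any comparison. Their median difference was -0.01 in conditioning minus baseline and 0.0005 in the interaction. Gpsm2, a GoLoco protein that holds inhibitory alpha subunits, had the lowest p, at -0.77 in pain minus baseline (SE 0.20, p 0.000618, adjusted p 0.303). In the same comparison Plcd1, a phospholipase C, gave 0.24 (SE 0.10, p 0.0206, adjusted p 0.492), and 0.15 without pain replicate 3. Akap11, an anchoring protein for protein kinase A, gave -0.39 (SE 0.11, p 0.00161, adjusted p 0.722) in isoflurane minus baseline and 0.27 (SE 0.13, p 0.0443, adjusted p 0.998) in conditioning under isoflurane minus isoflurane.

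For protein kinase A and its targets, Crem, a cyclic AMP-responsive transcription factor, gave 0.77 (SE 0.33, p 0.0278, adjusted p 0.464) and Pkia, an inhibitor of the kinase, -0.15 (SE 0.07, p 0.0498, adjusted p 0.49) in conditioning minus baseline. Pkia gave 0.22 (SE 0.08, p 0.0131, adjusted p 0.999) in conditioning under isoflurane minus conditioning. Prkacb, a catalytic subunit, gave 0.22 (SE 0.09, p 0.0226, adjusted p 0.71) in conditioning under isoflurane minus baseline. Against baseline replicates 1 to 5 alone Crem gave 1.07, Pkia -0.21 and Prkacb 0.10 in these comparisons with baseline. Against replicates 6 to 9 alone they gave 0.38, -0.08 and 0.36. In conditioning minus pain Prkg2, a cyclic GMP-dependent kinase, gave -0.62 (SE 0.22, p 0.00894, adjusted p 0.48). Of the 13 protein kinase A probe sets, which stand for 8 genes, 11 had lower means after conditioning than at baseline (median -0.12). In that comparison 49.9% of all probe sets were higher. After conditioning under isoflurane 12 of the 13 had higher means than after conditioning (median 0.02), beside 51.8% of all probe sets. Both counts use the same conditioning arrays, so they are not separate observations.

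Of the 5 genes left out by the rule, Rgs9, Adcy5 and Pde10a are enriched in striatal neurons and enter the striatal score. Mean levels of Adcy5 (1368298_at) were 8.13 after conditioning under isoflurane, 7.99 after conditioning, 7.73 after pain, 8.10 after isoflurane and 8.23 at baseline. Those of Pde10a (1368438_at) were 9.67, 9.55, 9.62, 9.57 and 9.95 in the same order of groups. Rgs9 averaged 8.32 after isoflurane, its lowest mean, and 8.55 both after conditioning under isoflurane and at baseline. Rgs5, a marker of pericytes, averaged between 7.76 after conditioning under isoflurane and 7.42 at baseline. The probe set of Pde1b was below the signal filter.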

How the data were processed

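Probe-set intensity values, deposited by the authors, were used for 29 arrays. Each array's trimmed mean, without the lowest and highest 2%, was 500.084 to 500.117, so the values had been scaled per array; the software and build are not given in the sources used here. Of 15923 probe sets, 57 controls were left out. GEO's platform annotation gave 1 symbol for 12783 probe sets, several for 312 and none for 2771; 12748 matched by gene ID and 0 symbols changed. There were 0 unmapped columns.

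Signals were quantile-normalized, floored at 16 and put on the log2 scale. The 9520 probe sets whose mean reached the 40th percentile (7.2611) were tested with limma 3.58.1 in R 4.3.3 (lmFit, eBayes with trend, 5 group means on all arrays, Benjamini-Hochberg adjustment, threshold 0.05). The marker scores were added as covariates for the slopes. The script was tested on simulated data. The number of arrays limits the precision. Alternatives changed the scaling, filter, floor, variance model, groups fitted, baseline arrays, replicate block and marker covariates, and left out each array in turn. Genes given with values are those of lowest p in each direction per comparison, of lowest F test p, of largest slope relative to its error and of largest or smallest baseline SD, their other probe sets, and the pathway probe sets of lowest p. The members, lists and this rule were chosen with earlier results of these data known.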

Additional observations from a re-analysis of the deposited data

Results flagged for a closer look

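Over 34 named probe sets and 5 groups, 170 sets of values were examined for a single array standing apart from its group by Dixon's criterion, and 8 were found, where chance gives about 1 in 20. Gnai1 (1387505_at) was low on isoflurane replicate 2, at 8.77 with the next array at 9.71. Gnb1 (1367732_at) was high on isoflurane replicate 1, at 9.25 with the next at 8.97. Rgs2 (1368144_at) was high on conditioning under isoflurane replicate 2, at 9.18, and Gng10 was low on replicate 3 of that group, at 10.99. Adcy2 was low on isoflurane replicate 3, at 10.04. Rgs7 was low on conditioning replicate 2, at 10.43. Baseline replicate 2 had 2 such values, a high Rgs16 of 8.15 and a low Rgs14 of 8.47.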

How the results depend on the processing

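The number of members past the threshold was 0 in the F test, the 7 comparisons and the interaction under every alternative run, leaving out each array included. The striatal slope count of 2 was 1 with the deposited scaling, 1 with arrays centred on their medians and 0 with the replicate number as a block, and 0 to 2 on leaving out single arrays. The oligodendrocyte slope count of 2 was 1 with the deposited scaling, 0 with median centring, 1 with no filter and 1 with the replicate block, and 1 to 2 on leaving out single arrays. The cause was not tested. Rgs12 lost its call with median centring only (slope -1.27, adjusted p 0.296). The promoter share was 1.85% for the full element and 27.8% for the shorter core. The members' median in conditioning minus baseline was -0.02 against baseline replicates 6 to 9 alone and -0.07 against replicates 1 to 5 alone. With arrays centred on their medians it was -0.15, beside -0.06 over all probe sets. In pain minus baseline median centring moved the median of all probe sets to -0.11 and that of the members to -0.12. Same-numbered arrays of different groups deviated with a mean correlation of 0.0015 (-0.24 to 0.26), so the numbers do not pair them. The replicate block took the adjusted p to 0.322 for Rgs2, 0.283 for Pde4b and 0.0844 for Gna12, and changed no other call. Numbers 6 to 9 occur only at baseline, so that block fitted those arrays exactly and in effect left them out. Gpsm2 passed in pain minus baseline against baseline replicates 6 to 9 alone (-0.94, limma adjusted p 0.0492). Against replicates 1 to 5 alone it did not (-0.62, adjusted p 0.967), so the call depended on which baseline arrays were used.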
